A study of Mus musculus with 2 samples.

Results

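Granulopoiesis, the making of granulocytes from marrow precursors, is run by a small circuit of transcription factors, and 10 of them were followed here among the 32285 genes counted: the C/EBP family members Cebpa, Cebpb, Cebpd and Cebpe, and Gfi1, Spi1, Runx1, Irf8, Klf2 and Bhlhe40. They were chosen by name, and all 10 were found among the measured genes. Each of them had at least 1 UMI. As background, Spi1 (PU.1) and Runx1 set up the myeloid program, Cebpa commits precursors to the granulocyte line, and Gfi1 and Irf8 act on opposite sides of the choice between neutrophil and monocyte. Cebpe is the factor of the late promyelocyte and myelocyte that switches on the secondary granule genes, Cebpb drives granulocyte production in emergencies and stays on in mature cells, and Cebpd is induced in inflammation. Klf2 is a factor of quiescence in leukocytes and endothelium, and Bhlhe40 represses transcription in activated leukocytes.

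The cells were osteal macrophages (Omacs) as the study labels them, sorted on CD11b, F4/80 and CD68 after overnight enzyme digestion of femurs and vertebrae of female BALB/c mice, which had been ovariectomized (OVX) or sham-operated at 10 weeks of age and were used 4 weeks later. All animals of a condition were pooled, the OVX pool carried hashtag antibody 1 and the sham pool hashtag antibody 2, and both were run together as 1 droplet library. There was therefore 1 sample per condition and no replicate: values are UMIs of a gene per 1000000 UMIs of its group of cells (CPM, where a UMI is 1 captured RNA molecule counted once at its 3′ end, so that levels are not scaled by gene length), intervals are exact at 95% and cover counting error only, and no p-value was computed. Differences between the conditions cannot be told apart from differences between the pools or hashtags.

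The library held 2349 barcodes with a median of 4387 UMIs, of which 1059 were assigned to OVX, 981 to sham, 78 to both hashtags and 231 to neither. Of 6 clusters, 4 were neutrophil-like by fixed markers and held 2077 barcodes, or 88.4% of all. They are called here by leading genes as Mki67/Ltf (384 cells), Retnlg/Lyz2 (469), Stfa2/Retnla (606) and Ccl4/Jaml (618). In these cells 14 of 15 neutrophil markers stood at 10 CPM or more, and the 15 summed to 283959 CPM. The count alone did not set them apart, since the stromal-like cluster named below had 13 of 15, but its sum was 3889 CPM. In the neutrophil-like cells the 11 macrophage markers summed to 132.5 CPM, and 4 of them stood at 10 CPM or more. Of the sort markers on this list, Cd68 stood at 62.4 CPM and Adgre1, which encodes F4/80, at 5.59 CPM. Msr1 was at 27.9 CPM, Arg1 at 23.7 CPM and Csf1r at 10.4 CPM, and C1qc had no UMI. The label macrophage therefore did not describe most of the cells, and the factors were studied as those of neutrophil-like cells. The other clusters were a stromal-like Prg4/Dcn cluster (210 cells) and an Arg1/Pf4 cluster (62 cells), which was left without a cell type name. It held 7 of the 11 macrophage markers at 10 CPM or more, led by Arg1 (6614 CPM) and with C1qa, C1qb, C1qc and Vcam1 at 0, beside the platelet genes Pf4 and Ppbp. Its macrophage markers summed to 8191 CPM. It also held 13 of the 15 neutrophil markers at 10 CPM or more, with a sum of 27128 CPM.

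Maturation was read from a score that used none of the 10 factors: the log2 ratio of UMIs of Csf3r, Cxcr2, Il1b, Msrb1, Btg1 and Ccl6 to UMIs of the secondary granule genes Ltf, Camp, Ngp, Chil3 and Fcnb in each cell. The 2077 cells were cut by it into 5 stages of equal cell number, from stage 1 (least mature) to stage 5, and 30 to 73 cells lay within 0.1 of each cut. Stages 4 and 5 held only 391 and 155 UMIs of the secondary granule genes of the score, over 415 cells each. There the score rested mainly on UMIs of the mature genes, which also depend on the depth of a cell (median 2951 and 4142 UMIs). Of the 416 cells of stage 1, 300 belonged to the Mki67/Ltf cluster, in which cycling genes were high. The mature gene Il1b was also a top gene of Ccl4/Jaml, which had 215 of its 618 cells in stage 4 and 224 in stage 5. The late stages therefore mix maturation with the state of that cluster, and the score cannot tell them apart. None of the 10 factors was among the variable genes used to cluster the cells.

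Over all neutrophil-like cells Cebpb was the most abundant of the factors at 1365 CPM (interval 1344 to 1386), followed by Spi1 at 308 CPM, Bhlhe40 at 192 CPM, Klf2 at 156 CPM, Runx1 at 153 CPM, Cebpd at 131 CPM, Cebpe at 36.4 CPM, Cebpa at 28.9 CPM and Irf8 at 5.42 CPM. Klf2 and Runx1 were indistinguishable within their intervals (149 to 163 and 146 to 160 CPM); every other pair of neighbors in this order had intervals that did not overlap. Gfi1 (chr5:107716657-107726036, minus strand, in GRCm38 as all positions here), the repressor that marks granulocyte precursors, had 5 UMIs in 2077 cells and 6 in the whole library, at 0.43 CPM (0.14 to 1.00), too few to compare between any groups. The factors also differed in how their UMIs were spread: the 104 richest cells (5% of the cells) held 76.4% of the Cebpe UMIs but only 20.2% of those of Cebpb and 25.4% of those of Spi1.

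Promoters of the C/EBP and Klf2 genes that passed a limit in these comparisons are shown from RefSeq (GRCm38.p6), where 6 of the 10 factors had an entry and Cebpd, Cebpe, Spi1 and Bhlhe40 had none. The 250 bases before the start of Cebpb (chr2:167688665-167688914, plus strand) and of Klf2 (chr8:72318812-72319061, plus strand, running past the GENCODE start of the gene at 72319033) are given 5′ to 3′. Capitals mark the cyclic AMP response element core TGACG on either strand and, in Klf2, a MEF2-like match, a motif that was chosen with this sequence in view.
Cebpb: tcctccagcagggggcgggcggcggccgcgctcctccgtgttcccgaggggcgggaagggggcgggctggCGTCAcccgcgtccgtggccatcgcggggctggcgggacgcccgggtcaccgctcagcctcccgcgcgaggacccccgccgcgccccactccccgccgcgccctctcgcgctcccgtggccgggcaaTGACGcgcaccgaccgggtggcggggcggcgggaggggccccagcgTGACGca
Klf2: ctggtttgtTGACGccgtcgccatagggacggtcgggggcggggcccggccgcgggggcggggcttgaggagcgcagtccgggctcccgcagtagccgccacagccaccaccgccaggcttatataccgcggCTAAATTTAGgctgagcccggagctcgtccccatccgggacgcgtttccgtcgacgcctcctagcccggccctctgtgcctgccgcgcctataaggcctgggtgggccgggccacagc

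The Cebpb window held TGACG 3 times, 180, 53 and 7 bases before the start, and the Klf2 window once, 241 bases before it. Among all 32851 RefSeq promoters, 17.8% held it at least once in a window of the same length. The MEF2-like match stood 118 bases before the Klf2 start and was found in 3.20% of promoters. The C/EBP-like letters TTNNGCAA were in neither window and in 9.56% of all promoters. These are matches of letters and not measured binding.

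The clearest switch along maturation was within the C/EBP family. The score holds secondary granule genes, which Cebpe switches on, so the course of Cebpe along it is not independent of the ordering. The course of Cebpb is not free of it either, since Il1b of the score also led Ccl4/Jaml, the neutrophil-like cluster highest in Cebpb. Cebpe (chr14:54710360-54712174, minus strand, GRCm38, 2 exons) was counted at 99.3 CPM in stage 1, 21.5 CPM in stage 2, 4.82 CPM in stage 3, 4.47 CPM in stage 4 and 2.21 CPM in stage 5. It was 44.8-fold lower in stage 5 than in stage 1 (interval 19.0 to 139), from 346 UMIs against 5, and 81.8% of its 423 UMIs lay in stage 1. In cells, 34.6% of stage 1 held a Cebpe UMI (median depth 7112 UMIs) and 1.20% of stage 5 did (4142 UMIs). After thinning every cell to 1000 UMIs the shares were 7.55% and 0.24%. The stromal-like cells, which should lack Cebpe, gave 0.48% at a median of 19996 UMIs, and 0 after thinning (interval up to 1.85%).

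Cebpb, an intronless gene at chr2:167688915-167690418 on the plus strand, went the other way. It stood at 764 CPM in stage 1, 1429 CPM in stage 2, 1781 CPM in stage 3, 1836 CPM in stage 4 and 1586 CPM in stage 5. The level of stage 5 was 2.08-fold that of stage 1 (1.97 to 2.18), and most of the step lay between stages 1 and 2. The rise is relative to all UMIs: the median Cebpb UMIs per cell were 5, 6, 5, 5 and 7 in stages 1 to 5. The median depth was 7112 UMIs in stage 1 and 4142 UMIs in stage 5. The highest levels were in stages 3 and 4, whose intervals overlapped, and stage 5 was below both.

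As a share of the UMIs of the 4 C/EBP genes among the factors, Cebpe made up 9.83% (8.86 to 10.9) in stage 1, 1.36% in stage 2 and 0.12% in stage 5. A further C/EBP gene, Cebpg, was not part of this sum and stood at 68.0 CPM in stage 1 and 112.5 CPM in stage 5. Cebpb made up 75.6% (74.1 to 77.0) in stage 1 and between 89.3% and 91.3% in the later stages. Cebpb was thus the main C/EBP transcript at every stage, stage 1 included. Cebpd made up 12.2% (11.1 to 13.3) in stage 1, more than Cebpe. From stage 2 on, Cebpe had the lowest share of the 4 genes, although in stage 2 its interval overlapped that of Cebpa. In single cells, 141 of the 144 cells of stage 1 with a Cebpe UMI also held a Cebpb UMI. Cebpe outnumbered Cebpb in 18 cells of stage 1 and in none of the later stages.

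**Figure D1:**
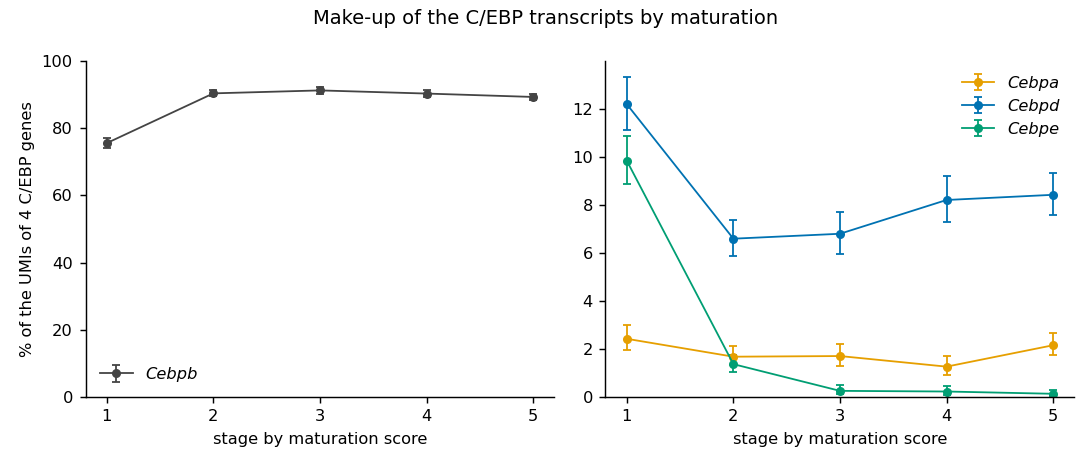
Share of each C/EBP gene (y axis, percent of the summed UMIs of Cebpa, Cebpb, Cebpd and Cebpe) in the stages of the maturation score (x axis) of all 2077 neutrophil-like cells, with Cebpb on the left and the other genes on a scale of their own on the right; bars are exact 95% intervals. The Cebpe line goes from 9.83% to 0.12%, and Cebpb stays at 75.6% or above throughout.

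Stage 1 was split by cell division, with no clear difference in Cebpe. The 41 cells with 10 or more UMIs of the cycling genes (Mki67, Top2a, Hist1h1b, Birc5 and Stmn1) had 117 CPM of Cebpe (93.2 to 145), and the other 375 cells had 94.7 CPM (83.6 to 107), so the intervals overlapped. The direction differed between the pools: OVX had 65.8 CPM in the cycling cells (18 UMIs) against 104 CPM in the others, and sham had 131 CPM (47 UMIs) against 88.6 CPM. Cebpb was at 434 CPM (387 to 485) in the cycling cells and 849 CPM (815 to 884) in the others. The Cebpe share of C/EBP UMIs was 16.8% (13.7 to 20.4) and 8.67% (7.69 to 9.73), respectively. This held in sham, at 17.2% (12.9 to 22.2) and 8.19%, but in OVX the shares were 10.2% (6.14 to 15.6) and 9.69%. The cycling cells were deeper, at a median of 15897 against 6802 UMIs.

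The remaining C/EBP genes differed less between the ends. Cebpa (chr7:35119293-35121928) ran at 24.4 CPM in stage 1 and 38.1 CPM in stage 5, a 1.56-fold difference (1.14 to 2.13), with 25.5 to 33.1 CPM between them. Cebpd (chr16:15887286-15891031) was at 123 CPM in stage 1, at its lowest, 104 CPM, in stage 2 and at its highest, 167 CPM, in stage 4. Stage 5 was at 1.21-fold the level of stage 1 (1.05 to 1.40).

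Among the general myeloid factors, Spi1 (chr2:91082390-91115756) was nearly flat, between 267 CPM in stage 5 and 358 CPM in stage 3. Runx1 (chr16:92601466-92826149) was at 104 CPM in stage 1, 142 CPM in stage 2, 179 CPM in stage 3, 198 CPM in stage 4 and 191 CPM in stage 5, a difference of 1.85-fold (1.60 to 2.13) between the ends. Bhlhe40 (chr6:108660629-108666925) followed a like course, from 125 CPM to 260 CPM in stage 4 and 222 CPM in stage 5, 1.78-fold (1.56 to 2.03). Klf2 (chr8:72319033-72321656) was highest in stages 2 and 3, at 181 and 177 CPM, and lowest in stage 5, at 124 CPM.

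With a difference of 2-fold as the limit and 10 CPM in either stage as the lowest level tested, 1 of the 8 factors tested was higher in stage 5 than in stage 1 (Cebpb) and 1 was lower (Cebpe). Over all 6283 genes tested, 12.0% were higher and 28.3% lower by this limit, so the count of factors was near the background in both directions, and the median log2 ratio of the 8 factors was 0.46 against -0.20 over all genes. Among the ratios of tested genes with a UMI in both stages, Cebpe lay at percentile 0.675 and Cebpb at percentile 88.8. With TMM scaling, which shifted the median of all genes from -0.20 to 0.04, Runx1 and Bhlhe40 also passed, and the split of genes over the limit was 1032 higher to 1423 lower in place of 753 to 1777. Cebpb did not pass with equal weight per cell, with Leiden clustering or with 3 stages in place of 5.

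**Figure D2:**
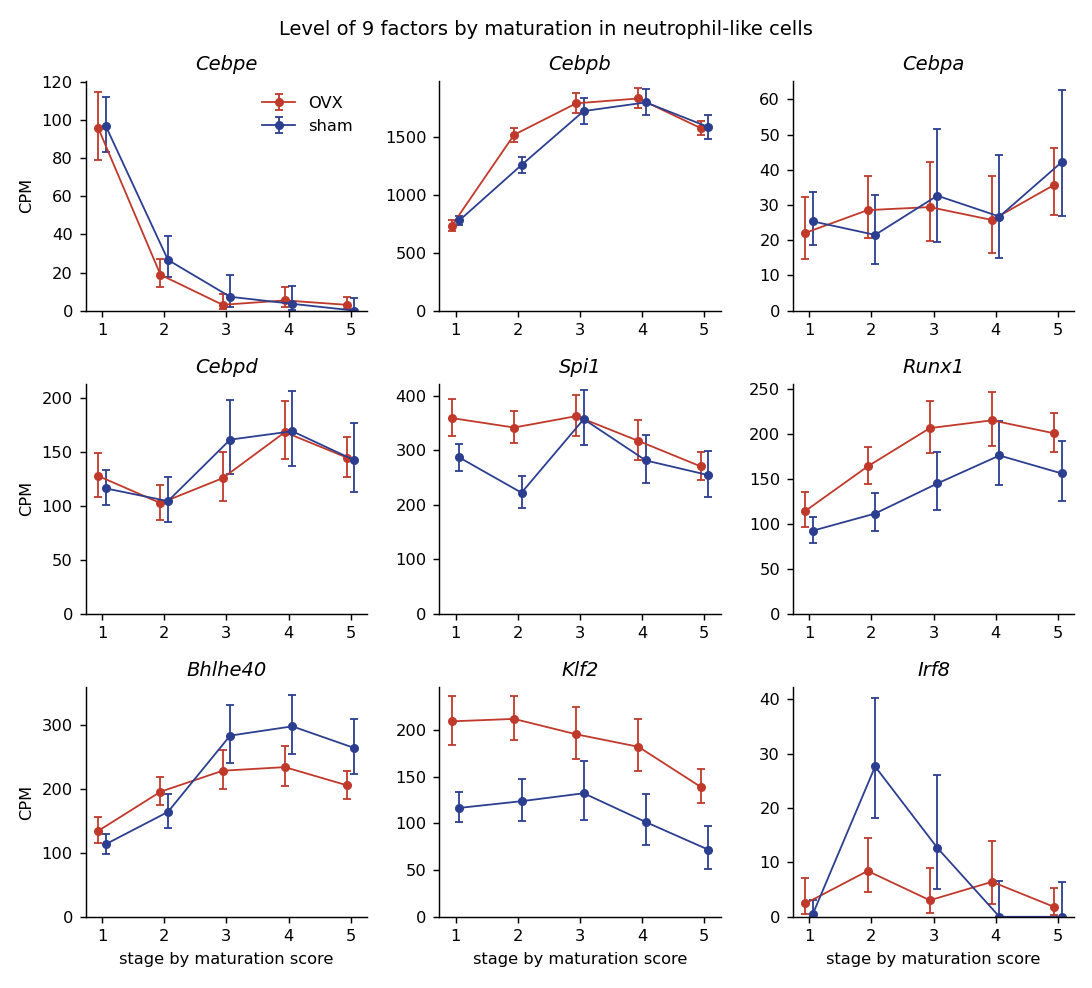
Level (CPM, y axis, from 0) of 9 of the 10 factors in the stages of the maturation score (x axis) for OVX (red) and sham (blue) neutrophil-like cells; bars are exact 95% Poisson intervals. Cebpe is near 97 CPM in stage 1 of both conditions and low afterwards, the OVX line of Klf2 lies above the sham line in all 5 stages, and the Bhlhe40 lines cross between stages 2 and 3.

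Other genes of the circuit were read from lists. Of 12 stem and progenitor factors, 5 reached the tested level, and 4 of these were lower in stage 5: Lyl1 (25.5 CPM in stage 1 and 0.89 CPM in stage 5), Lmo2, Myb (18.1 and 2.21 CPM) and Myc (27.6 and 3.54 CPM), while none was higher. Of 11 late or activated neutrophil factors tested, 10 were higher in stage 5, with Irf5, Nfil3 (26.1 and 92.6 CPM), Fosl2 (89.5 and 286 CPM) and Bach1 (104 and 328 CPM) the furthest apart, and none was lower. This list includes factors of activated cells, and the score does not tell activation from maturation. Of 10 partners and regulators tested, 2 were higher: Trib1, a pseudokinase that directs C/EBPα to degradation, at 77.8 and 210 CPM, and Ets2 at 47.6 and 124 CPM. Cbfb, the partner of Runx1, stayed between 45.3 and 51.2 CPM in all stages. Of 4 monocyte and macrophage factors tested, 3 were higher (Zeb2, Egr1 and Egr2).

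Of 6 genes listed for the primary granules, not all of which encode granule proteins, 3 reached the tested level and all were lower in stage 5. Elane at 14.6 CPM in stage 1 and Prtn3 at 28.7 CPM had no UMI in stage 5 (where 3 UMIs would be 1.33 CPM). Ms4a3, a precursor marker, went from 49.9 to 0.44 CPM. Mpo was at 2.30 CPM in stage 1, under the limit. Of the 8 secondary granule genes 7 were lower and Mmp8 was higher, but Ltf, Camp, Ngp, Chil3 and Fcnb were part of the score. Of these genes not in the score, Lcn2 went from 6240 to 934 CPM, Itgb2l from 36.4 to 0.44 CPM and Mmp8 from 420 to 1604 CPM. Among 6 cytokine receptors, Csf3r, which was in the score, Csf1r and Il6ra (53.1 and 126 CPM) were higher and none was lower.

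Across the clusters the same factors sorted as follows. Cebpe stood at 90.9 CPM (81.2 to 102) in Mki67/Ltf, 11.2 CPM in Retnlg/Lyz2, 18.6 CPM in Stfa2/Retnla and 3.06 CPM in Ccl4/Jaml. Outside these it was at 25.8 CPM (14.4 to 42.5, from 15 UMIs) in Arg1/Pf4 and at 0.18 CPM in the stromal-like cells. Among the 4 neutrophil-like clusters Cebpb was lowest in Mki67/Ltf, at 724 CPM, and highest in Ccl4/Jaml, at 1897 CPM. The stromal-like cells had less, with 246.5 CPM in OVX and 266.4 CPM in sham. Spi1 was between 289 and 316 CPM in the 4 neutrophil-like clusters, with overlapping intervals, and at 244 CPM in Arg1/Pf4. It was at 4.02 CPM in the stromal-like cells, where 8.57% of cells held a UMI (median depth 19996 UMIs) against 64.0% of the neutrophil-like cells (3905 UMIs). Runx1 and Bhlhe40 were also counted outside blood cells, since the stromal-like cells had 291 CPM of Runx1 and 336 CPM of Bhlhe40, above every neutrophil-like cluster (highest 228 and 288 CPM, both in Ccl4/Jaml). These cluster levels are descriptions of cells that were grouped by their own expression.

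Irf8 (chr8:120736358-120756694), which favors monocytes and dendritic cells, was concentrated in the Arg1/Pf4 cluster. It stood at 206 CPM (171 to 247) in that cluster, where 67.7% of the 62 cells held a UMI, and at 14.6 CPM in Mki67/Ltf, 2.42 CPM in Stfa2/Retnla, 1.02 CPM in Ccl4/Jaml and 0.91 CPM in the stromal-like cells. No UMI was counted in the 469 Retnlg/Lyz2 cells, where 3 UMIs would be 1.46 CPM. In Mki67/Ltf, 48 of its 51 UMIs came from 57 cells with Cd74 at 2004 CPM, a median of 1376 UMIs and a median of 30.1% mitochondrial UMIs, against 1.00% in the rest of that cluster. These cells had 106 CPM of Irf8 (78.4 to 141) and were picked after the data were seen, as those that a clustering on 1000 variable genes put with Arg1/Pf4. Without them and 2 further cells the neutrophil-like cells held 12 UMIs of Irf8 in OVX and 0 in sham. The lower Irf8 of OVX in stage 2 (13 UMIs against 27, 8.43 and 27.7 CPM) therefore rested on the removed cells, since they held every Irf8 UMI of the sham neutrophil-like cells.

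**Figure D3:**
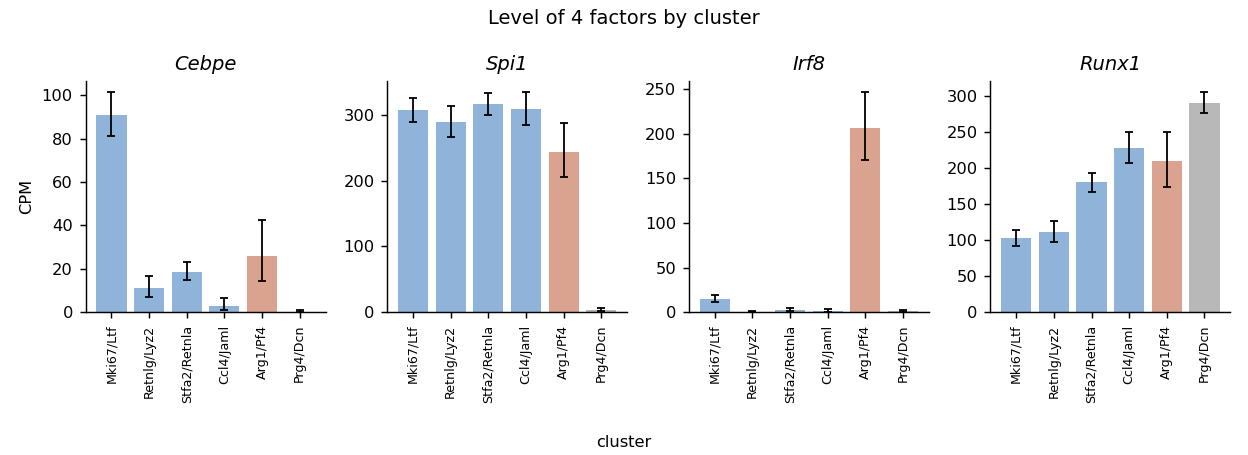
Level (CPM, y axis, from 0) of Cebpe, Spi1, Irf8 and Runx1 in the neutrophil-like clusters (blue), the Arg1/Pf4 cluster (orange) and the stromal-like Prg4/Dcn cluster (gray), over all barcodes of each cluster; bars are exact 95% Poisson intervals. Cebpe is highest in Mki67/Ltf at 90.9 CPM, Spi1 is near 0 only in the stromal-like cells, Irf8 reaches 206 CPM in Arg1/Pf4, and Runx1 is highest in the stromal-like cells at 291 CPM.

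The conditions were compared first over all neutrophil-like cells, 1005 from OVX (median 4565 UMIs) and 886 from sham (median 3450 UMIs). Klf2 had 186 CPM in OVX against 113 CPM in sham, 1.65-fold higher (1.48 to 1.83). Cebpe had 25.1 CPM in OVX against 46.5 CPM in sham, 1.85-fold lower (1.499 to 2.29). Runx1 was at 178 and 122 CPM, a ratio of 1.47 (1.32 to 1.63), Cebpb at 1473 and 1232 CPM, a ratio of 1.20 (1.16 to 1.24), and Spi1 at 326 and 277 CPM, a ratio of 1.18 (1.10 to 1.27). Cebpa (28.9 and 27.7 CPM), Cebpd (132 and 129 CPM) and Bhlhe40 (197 and 188 CPM) had ratios from 1.02 to 1.05 with intervals that included 1. Irf8 had 28 UMIs in OVX and 35 in sham, and Gfi1 had 3 and 2, both under the tested level.

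By a limit of 1.5-fold, 1 of 8 factors was higher in OVX (Klf2) and 1 lower (Cebpe). Over all 5965 genes tested 6.05% were higher and 17.0% lower, which is near these counts, and the median log2 ratio over all genes was -0.13, against 0.15 over the factors. With TMM scaling, which moved the median of all genes to 0.04, Runx1 was past the limit as well, and the split of genes past it was 591 higher to 636 lower in place of 361 to 1015. With equal weight per cell neither factor was past it (log2 ratios of 0.58 for Klf2 and -0.43 for Cebpe).

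Among the lists, all 3 genes tested of the primary granule list were lower in OVX over all cells. Elane was at 0.32 CPM against 12.1 CPM, Prtn3 at 1.89 against 25.5 CPM and the precursor marker Ms4a3 at 7.42 against 25.0 CPM. Of 7 secondary granule genes tested, 4 were lower (Ltf, Camp, Chil3 and Ngp) and none higher. Of 6 cytokine receptors, 2 were higher, Csf3r (the receptor for the granulocyte growth factor G-CSF, 958 against 511 CPM) and Csf1r. Of 12 late or activated neutrophil factors 1 was higher, Irf5, and of 3 stem and progenitor factors tested 1 was lower, Lyl1.

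The pools differed in stage by the score: 24.5% of the sham but 13.2% of the OVX neutrophil-like cells lay in stage 1, and 16.1% and 26.1% in stage 5. The OVX cells were also deeper (median 4565 against 3450 UMIs), and whether depth is related to the difference in stage 5 was not tested. Because of the difference in stage, levels were also averaged over the stages with equal weight. At matched maturation Cebpe had 25.2 CPM in OVX (21.4 to 29.5) against 26.9 CPM in sham (23.1 to 31.4), a ratio of 0.94 with overlapping intervals. The score itself holds secondary granule genes, whose course is close to that of Cebpe, and the matched log2 ratio of -0.09 was -0.54 when cells were ordered by diffusion pseudotime and -0.34 with 3 stages. In stage 1, which holds most Cebpe, OVX had 95.8 CPM from 117 UMIs and sham 96.9 CPM from 176 UMIs, a ratio of 0.99 (0.78 to 1.26). Within the Stfa2/Retnla cluster Cebpe had 12.3 CPM in OVX against 64.2 CPM in sham. Of its 112 sham and 461 OVX cells, 38.4% and 6.73% were in stage 1. Its stage 1 cells held 12 Cebpe UMIs among 232205 UMIs in OVX and 25 among 258689 in sham. Whether stage accounts for the difference in this cluster was not tested. Cebpb was at 1492 and 1430 CPM at matched maturation, a ratio of 1.04. Cebpa had 28.3 and 29.7 CPM and Cebpd 134 and 139 CPM, and none of their ratios within a stage had an interval that left out 1.

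Klf2 was also higher in OVX at matched maturation, with 188 CPM (177 to 199) against 109 CPM (98.9 to 121) in sham, a ratio of 1.72. In stage 1 OVX had 210 CPM and sham 117 CPM, in stage 2 212 and 124 CPM, in stage 3 196 and 132 CPM, in stage 4 182 and 101.5 CPM, and in stage 5 139 and 72.03 CPM. The OVX level was higher in 5 of 5 stages, with ratios from 1.48 to 1.93 and every interval above 1. After thinning to 1000 UMIs, a Klf2 UMI was found in 18.5% of the OVX cells (16.1 to 21.1) against 10.6% in sham (8.57 to 12.95).

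By cluster the ratio of Klf2 ran from 1.01 to 1.76 among the neutrophil-like cells, and the difference between clusters was not tested. It was 1.76-fold (1.45 to 2.14) in Mki67/Ltf and 1.45-fold (1.10 to 1.93) in Ccl4/Jaml. In Stfa2/Retnla it was 1.25-fold with an interval from 0.99 to 1.59, and in Retnlg/Lyz2 the levels were 111 and 110 CPM, a ratio of 1.01 (0.72 to 1.38). The clusters held unequal numbers of the conditions (461 OVX to 112 sham cells in Stfa2/Retnla, 99 to 311 in Retnlg/Lyz2), and Klf2 was highest in Stfa2/Retnla. It was also higher in OVX outside the neutrophil-like cells: in the stromal-like cells it was at 60.3 CPM (38 cells) and 27.5 CPM (54 cells), a ratio of 2.20 (1.498 to 3.25). The rest of the 210 stromal-like cells carried both hashtags or neither and did not enter this ratio.

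A transcript that often marks ribosomal RNA carry-over, Gm42418, was also higher in OVX over all neutrophil-like cells, with 35684 against 21394 CPM, but not in each group of them. It was lower in OVX in stage 1 (19097 against 24089 CPM), where the Klf2 ratio was 1.795, and in Stfa2/Retnla (47754 against 75497 CPM), where it was 1.25. In stages 2 to 5 it was higher in OVX, most in stage 3 (54953 against 20079 CPM), where the Klf2 ratio was at its lowest of 1.48. Leiden clustering set apart 216 cells led by Klf2, Jund and Gm42418, with 449 CPM of Klf2, 3547 CPM of Cebpb and 226788 CPM of Gm42418. Without these cells Klf2 had 165 CPM in OVX against 106 CPM in sham, a ratio of 1.55 (1.39 to 1.74). In the stromal-like cells Gm42418 had 12924 CPM in OVX against 15207 CPM in sham. Whether such carry-over is related to the Klf2 difference was not tested. In the Cd74-high cells of Mki67/Ltf described above, Klf2 was lower in OVX, with 1 UMI against 22 in sham, a ratio of 0.15 (0.0036 to 0.93). These were unlike cells: the 20 of OVX had a median of 54.5% mitochondrial UMIs and the 23 of sham 7.45%. Cd74 was at 7833 CPM in the former and 278 CPM in the latter. Of 4 genes often tied to Klf2 in leukocyte trafficking, 3 were tested at matched maturation and 0 were past 1.5-fold. Among them were S1pr1 (27.8 and 29.3 CPM) and S1pr4 (13.2 and 16.9 CPM). Over all neutrophil-like cells 1 of the 3 tested was higher in OVX and 1, S1pr4, was lower.

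Runx1 was higher in OVX in 5 of 5 stages, with ratios from 1.22 to 1.47, of which 3 had an interval above 1. In stage 1 OVX had 115 CPM and sham 92.5 CPM, and in stage 5 they had 201 and 156 CPM. At matched maturation it was at 180 CPM (170 to 192) and 136 CPM (124 to 150), a ratio of 1.32. In the Retnlg/Lyz2 cluster both conditions had 117 CPM, a ratio of 1.00 (0.73 to 1.36). The Runx1 ratio was 1.34 (1.04 to 1.74) in Stfa2/Retnla, 1.30 (1.06 to 1.60) in Ccl4/Jaml and 1.23 (0.97 to 1.54) in Mki67/Ltf. The Spi1 ratio ran from 1.02 to 1.54 over the 5 stages, and 2 of its intervals lay above 1, in stage 2 (342 and 222 CPM) and stage 1 (359 and 287 CPM). In stages 3 to 5 the intervals included 1.

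Bhlhe40 lay on opposite sides of 1 in early and late cells, a difference that was not tested. OVX had 134 CPM and sham 113 CPM in stage 1, and 195 and 164 CPM in stage 2, with intervals of the ratio that included 1. In stage 3 it was at 228 and 283 CPM, in stage 4 at 234 and 297 CPM and in stage 5 at 205 and 264 CPM, lower in OVX with ratios from 0.78 to 0.81 and intervals below 1. The share of cells with a UMI after thinning did not follow: in stage 3 it was 27.7% in OVX and 17.7% in sham, and in stage 5 it was 22.1% and 22.4%. No order can be read from these shares. The stages were not matched for cluster: in stage 5, 111 of 262 OVX cells and 4 of 143 sham cells were Stfa2/Retnla. In that cluster Bhlhe40 was at 195 and 178 CPM, a ratio of 1.10 (0.88 to 1.39). In Ccl4/Jaml it was at 268 and 322 CPM, a ratio of 0.83 (0.70 to 0.99). The ratio was 0.93 (0.73 to 1.18) in Retnlg/Lyz2 and 1.11 (0.90 to 1.36) in Mki67/Ltf. Whether the make-up of the stages is related to the ratios was not tested.

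At matched maturation 1 of 8 factors was higher by 1.5-fold (Klf2), where 5.90% of 5828 genes were, and 0 of 8 were lower, where 10.3% were. Among the ratios of tested genes with a UMI in both conditions, Klf2 lay at percentile 96.5, Runx1 at 89.2, Spi1 at 81.8 and Bhlhe40 at 43.3. The median log2 ratio was 0.0043 for the factors and -0.11 for all genes. Of the other lists, 0 of 12 late or activated neutrophil factors and 0 of 4 monocyte and macrophage factors passed the limit. Neither did any of 6 cytokine receptors or 7 secondary granule genes, which over all cells had 2 higher and 4 lower in OVX. Csf3r, Ltf, Camp, Ngp and Chil3 of these lists were part of the score used for matching. Ets2 (89.7 CPM in OVX and 145 CPM in sham) was the sole call among 10 partners, and Prtn3 (2.02 and 15.2 CPM) and Ms4a3 (7.62 and 13.2 CPM) were lower.

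**Figure D4:**
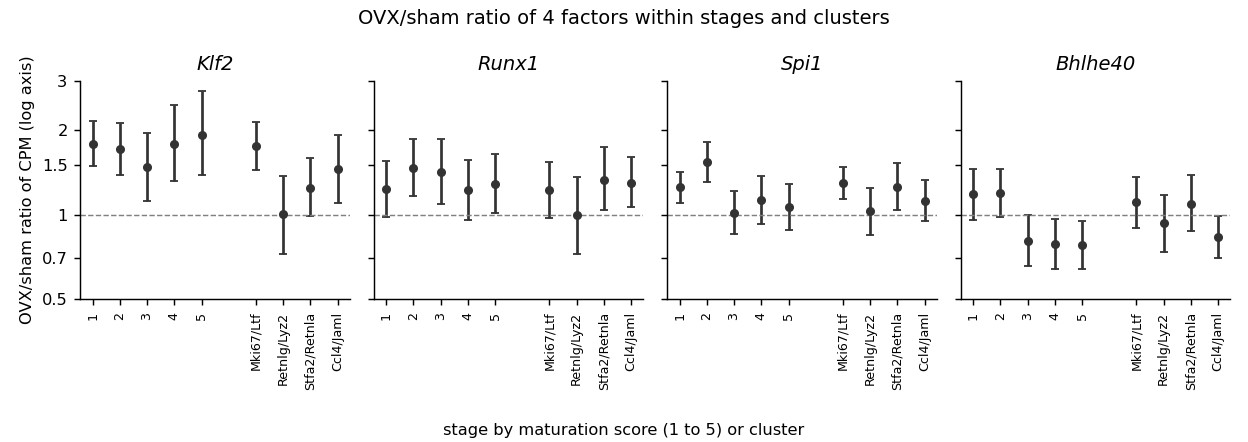
OVX/sham ratio of CPM (y axis, log scale) of Klf2, Runx1, Spi1 and Bhlhe40 within each stage of the maturation score (1 to 5) and within each neutrophil-like cluster; bars are exact 95% intervals for counting error and the dashed line marks 1. Klf2 is above 1 in every stage and at 1.01 in the Retnlg/Lyz2 cluster, and Bhlhe40 is at 0.81 or lower in stages 3 to 5.

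For each factor the most similar courses were sought among 1779 genes over 10 points, the 5 stages in OVX and in sham, which all come from 1 library. Cebpe was most like Camp (r = 0.984), which was in the score, Smc4 (0.983) and Serpinb1a (0.981). Cebpb was most like Mindy1 (0.983), Runx1 like Il13ra1 (0.986) and Bhlhe40 like Acot1 (0.987). The Klf2 course had its nearest match in Gsn at 0.899, and Cebpa (Osbpl11, 0.872), Cebpd (Ramac, 0.861) and Spi1 (Dok3, 0.815) had no closer one.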

How the data were processed

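The authors' files hold raw UMI counts from Cell Ranger on mm10 (GRCm38), deposited for barcodes called as cells, with 17681092 UMIs of genes and 13919170 UMIs of 2 hashtags. Cell Ranger is 6.0.0 in the header of the deposited counts and 6.0.1 in the submitters' processing notes. Hashtag counts were read from the same matrix.

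Barcodes were assigned from hashtag counts by the HTODemux function of Seurat 5.3.0 in R 4.3.3 at a positive quantile of 0.99; barcodes of both or neither hashtag entered only values over all cells. Clusters came from scanpy 1.11.5 (Python 3.11.15) (Louvain, igraph 0.11.9; 10000 counts per cell, log scale), using 2000 variable genes, 30 components and 15 neighbors. A cluster was neutrophil-like if at least 3 neutrophil markers reached 100 CPM and its top 10 genes by fold held no more markers of other cell types than of neutrophils. Scrublet marked 1 barcode as a doublet, and none was removed. The score had a pseudocount of 1, and 8 cells without a UMI of its genes stood at 0. Matched levels are means of CPM over stages with Fay-Feuer intervals, ratios have exact conditional binomial intervals, and shares have Clopper-Pearson intervals. Ratios within groups needed 20 UMIs. Percentiles and median log2 ratios over all genes left out tested genes without a UMI on either side of the comparison. Thinning to 1000 UMIs left out 158 of 2077 neutrophil-like cells (48 OVX and 85 sham). Likeness is the Pearson r of log2(CPM + 10) for genes at 100 CPM or more in any point, for factors with at least 100 UMIs. Gene positions are from GENCODE for GRCm38. The calculations were tested on simulated data.

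The 10 factors, lists, markers and tests were chosen with earlier results of these data known. All 10 factors are named. For the lists, counts are given with at most 4 genes past the limit, but not for every list in every comparison. Further genes were named after their values were seen. Some genes of the lists are not reported here. Alternatives were the filter of 500 genes and 10% mitochondrial UMIs, equal weight per cell, Leiden clustering (leidenalg 0.10.2), 1000 variable genes, factors allowed among the variable genes, no doublets, a hashtag rule of 80% of at least 10 UMIs (956 OVX, 1166 sham), a limit of 50 CPM, TMM factors (edgeR 4.0.16), a thinned score, diffusion pseudotime and 3 stages. Leaving out the Cd74-high cells and the Klf2/Jund-led cells was added after seeing the data.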

Additional observations from a re-analysis of the deposited data

Results flagged for a closer look

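Across the 6 clusters and 5 stages, Cebpb and Bhlhe40 had OVX/sham ratios of CPM whose counting intervals lay above 1 in some groups of cells and below 1 in others. The differences between the groups were not tested, since each condition was 1 pool. For Cebpb the ratio was 0.905 in the Mki67/Ltf cluster, 0.882 in Retnlg/Lyz2 and 0.800 in Arg1/Pf4, and 1.09 in Stfa2/Retnla (1.085 before rounding) and 1.21 in stage 2 of the maturation score. For Bhlhe40 it was 0.832 in Ccl4/Jaml, 0.806 in stage 3, 0.786 in stage 4 and 0.779 in stage 5, and 1.24 in the stromal-like Prg4/Dcn cells. In cells picked after the data were seen, Klf2 was at 0.15 in the Cd74-high cells, from 1 and 22 UMIs, and Cebpd at 0.60 (0.38 to 0.97) in the Klf2/Jund-led cells, against 2.43 (1.06 to 5.62) in Arg1/Pf4. The Cd74-high cells of OVX and sham were unlike in mitochondrial share and Cd74, as given above. Arg1/Pf4 held 16 OVX and 41 sham cells, and Prg4/Dcn 38 and 54.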

How the results depend on the processing

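Allowing the factors among the variable genes selected none of them and changed no value, so it tests nothing. Under the other 13 alternatives Klf2 was the 1 factor higher in OVX at matched maturation (log2 ratio 0.63 to 0.90), and under the other 12 Cebpe was lower in stage 5 (-5.74 to -4.40). The matched log2 ratio of Cebpe ran from -0.54 (pseudotime) to 0.13 (equal weight). Over all cells, the count of factors higher in OVX was 0 with equal weight per cell and 2 (Runx1, Klf2) with the other hashtag rule or TMM, and the count lower was 0 with equal weight or at 50 CPM, where Cebpe is not tested. At matched maturation, 3 stages gave 1 lower (Irf8). For stage 5 against stage 1, the count higher was 0 with equal weight, Leiden clustering or 3 stages, 2 (Cebpb, Bhlhe40) with the thinned score or pseudotime and 3 with TMM, and the count lower was 2 (Cebpe, Irf8) with pseudotime. The stage 1 shares of Cebpb and Cebpe were 80.3% and 6.59% with equal weight, 78.0% and 8.58% with Leiden clustering, 80.03% and 7.79% with pseudotime, and 81.8% and 6.26% in 3 stages. The thinned score gave Cebpb 90.4% in stage 5. Of all genes, 1015 were lower in OVX in the reported values, and 572 with equal weight, 380 with Leiden clustering, 469 with 1000 variable genes, 466 without the Cd74-high cells, 636 with TMM and 282 at 50 CPM. At matched maturation 598 were lower, and 311, 304, 303, 371 and 167 with Leiden clustering, 1000 variable genes, no Cd74-high cells, TMM and 50 CPM, while 344 were higher, and 539, 517, 520 and 104 with equal weight, 1000 variable genes, no Cd74-high cells and 50 CPM. With 50 CPM, 144 were higher in OVX in place of 361, and 449 and 516 higher and lower in stage 5 in place of 753 and 1777. The cause of these changes was not tested. No paired analysis was possible because there was 1 pool per condition.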
